A study of Mus musculus with 6 samples.

Results

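The acyl-CoA thioesterase genes (Acot) were followed in mouse liver arrays, as all non-control probes whose accession RefSeq assigns to Acot1, Acot2, Acot3, Acot4, Acot7, Acot8, Acot9, Acot11, Acot12 or Acot13. These 10 genes, of 20284 that RefSeq named on the array, had 12 probes among the 55681 on the array, with 2 probes each for Acot3 and Acot8. The samples were livers of 3 male mice lacking Gα12 (Gα12 KO), a G protein α subunit encoded by Gna12, and of 3 male WT mice. Animals of both genotypes were 8 weeks old, were kept on chow and fasted overnight, with strains given as C57BL/6 and 129/Sv and a genetic background that was 95% C57BL/6. The sources used here do not state which part of Gna12 was deleted or whether KO and WT animals were littermates. The question was which liver transcripts differ between the genotypes.

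Acyl-CoA thioesterases cut the thioester bond between a fatty acid and coenzyme A, releasing the free acid and CoA. They work against the acyl-CoA synthetases, and so set how much of an acyl-CoA is available in a given compartment. The type I enzymes (Acot1 to Acot4 here) have an α/β-hydrolase fold and arose by duplication in a gene cluster. In mouse liver they are known targets of PPARα, the fatty acid receptor that drives the fasting response. The type II enzymes (Acot7 to Acot13 here) have a hotdog fold and are unrelated in sequence to type I. Within each type the enzymes sit in different places, such as the cytosol, mitochondria and peroxisomes, and prefer different chain lengths.

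A level below is the log2 signal of a probe minus the 75th percentile of its array, and a difference is the KO mean minus the WT mean of such levels. Probes differ in brightness for reasons other than transcript number, so levels of different probes were not compared with each other. Of the 12 probes, 10 (for 9 genes) were well above background on all 6 arrays and were kept with 23132 probes in all. Acot2 and the second Acot3 probe were too dim to be kept. All arrays lay on 1 slide, KO in its row 2 and WT in its row 1, and the effects of row and of genotype cannot be told apart. Spots marked as non-uniform, which were left out, numbered 90 to 152 on KO arrays and 2 to 6 on WT arrays. The single Gna12 probe was well above background in 0 of 3 KO livers and 1 of 3 WT livers, at levels of -4.91, -4.62 and -3.47 in KO and -3.48, -4.55 and -0.89 in WT, so it hardly tests the genotype labels. WT replicates 1 and 2 stood apart: across kept probes they correlated at 0.869 to 0.930 with KO arrays, whereas WT replicate 3 correlated at 0.966 to 0.982 with them. WT replicate 3 was also the brightest array, with 28752 probes well above background against 20953 to 23530 on the others. The 7 Gapdh probes spanned 4.36 to 4.87 log2 units on KO arrays, 9.58 and 7.79 on WT replicates 1 and 2 and 4.01 on WT replicate 3. The part of this split between the WT replicates, and of array brightness, in the results was not tested. Differences of the members and of the list genes named are therefore also given as the KO mean minus WT replicate 3 alone, with no test. Limma called 0 of 23132 probes at an adjusted p below 0.05 (0%), while 4861 had an unadjusted p below 0.05. The median difference over all kept probes was -0.38, and it is the shift against which differences of this fit should be read. Against WT replicate 3 alone the median over all named genes was -0.03.

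The 2 type I genes with the lowest p among the members, Acot4 and Acot3, are neighbours in the chromosome 12 cluster, where RefSeq (GRCm38.p6) gives the protein-coding genes in the order Acot2, Acot1, Acot4, Acot3, Acot5, Acot6. No member lies on chromosome 5, which carries Gna12. The promoter sequences of Acot3 and Acot4 are shown because these genes had the lowest p and their KO livers lay below every WT liver. The motif searched was AGGTCA, the half-site that nuclear receptors such as PPARα recognise, on either strand (TGACCT on the other). The window ran from 250 bases before the start to 50 bases after it. Below are the 250 bases before the start and 30 after it, on the plus strand of GRCm38.p6, from RefSeq, 5′ to 3′, with the motif in capitals. The Acot3 run lies at chr12:84051894-84052173 and the Acot4 run at chr12:84038129-84038408.
Acot3: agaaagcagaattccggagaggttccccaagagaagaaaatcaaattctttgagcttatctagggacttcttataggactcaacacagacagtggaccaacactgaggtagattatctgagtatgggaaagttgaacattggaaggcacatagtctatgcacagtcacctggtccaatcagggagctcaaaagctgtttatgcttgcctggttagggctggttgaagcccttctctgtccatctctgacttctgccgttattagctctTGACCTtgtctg
Acot4: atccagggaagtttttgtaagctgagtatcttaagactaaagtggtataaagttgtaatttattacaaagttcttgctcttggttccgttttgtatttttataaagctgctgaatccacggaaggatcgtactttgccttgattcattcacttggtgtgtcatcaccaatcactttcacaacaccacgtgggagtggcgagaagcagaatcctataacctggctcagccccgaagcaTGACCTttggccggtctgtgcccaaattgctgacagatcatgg

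The motif stood at bases -13 to -8 from the Acot4 start and at bases 19 to 24 after the first of both Acot3 starts listed, in either case as TGACCT. Of the 9 members with a promoter window, 3 held it (33.3%), the other being Acot12 at -110 to -105, against 18.1% of all 27025 genes with a window. By windows it was in 4 of 11 (36.4%) of the members and in 16.3% of all 32851. Both Acot3 windows are among these 4, with the motif at bases 12 to 17 after the second start, so 1 site may be counted in both. A direct repeat of AGGTCA with 1 base between the copies was in 0 of the 11 windows of members and in 0.0396% of all windows. A match is a string of letters only, and binding was not measured.

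Acot4 encodes a peroxisomal enzyme that in mouse acts on succinyl-CoA and other dicarboxylyl-CoAs. Its levels were -0.18, -0.12 and -0.22 in KO livers and 1.32, 1.23 and 1.19 in WT livers. The groups were separate by far more than their spread: the KO mean was -0.17 ± 0.05 (SD, n = 3) and the WT mean 1.25 ± 0.07 (SD, n = 3). Unlike many probes on these arrays, it gave nearly the same level in all 3 WT livers. The difference was -1.42 (SE 0.29, 95% interval -2.09 to -0.75), a signal 2.68-fold lower in KO. It did not pass the limma test over all probes (adjusted p = 0.228). Against WT replicate 3 alone the KO mean differed by -1.37. On the linear scale, before any scaling between arrays, the processed signals were 266, 271 and 341 in KO livers and 555, 737 and 1244 in WT livers.

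Acot3 encodes a second peroxisomal type I enzyme, which prefers long-chain acyl-CoAs. Its brighter probe had levels of -1.55, -1.62 and -2.24 in KO livers and -0.24, -0.59 and 0.33 in WT livers. All KO livers lay below all WT livers, and WT replicate 3 was the highest. The means were -1.80 ± 0.38 in KO and -0.16 ± 0.47 in WT (SD, n = 3 each). The difference was -1.64 (SE 0.38, 95% interval -2.52 to -0.75), or 3.11-fold lower in KO (limma adjusted p = 0.235). Against WT replicate 3 alone it was -2.14. The second Acot3 probe was well above background in 1 of 3 KO and 1 of 3 WT livers. Its levels were -4.86, -4.61 and -2.57 in KO and -4.77, -5.52 and -2.03 in WT, so it gives no fold and its groups overlapped.

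Acot1, the cytosolic long-chain enzyme of the cluster, is known for its induction by fasting and by PPARα agonists. Its levels were 3.01, 2.83 and 1.69 in KO livers and 4.03, 4.26 and 3.33 in WT livers. The groups did not overlap, but each was spread: KO replicate 3 lay over 1 log2 unit below the other KO livers, and WT replicate 3 was the lowest WT liver. The means were 2.51 ± 0.72 in KO and 3.87 ± 0.48 in WT (SD, n = 3 each). The difference was -1.36 (SE 0.46, 95% interval -2.43 to -0.29), or 2.57-fold lower in KO (limma adjusted p = 0.235). Against WT replicate 3 alone it was -0.82, and the highest KO liver was 0.32 below that array.

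Acot2, the mitochondrial type I enzyme, could not be assessed. Its probe was well above background in 0 of 3 KO livers and in 1 of 3 WT livers. The levels were -3.48, -3.51 and -3.49 in KO and -5.36, -5.71 and -2.64 in WT, so only WT replicate 3 gave a measurement. In a limma fit over all 55324 probes with a value on every array the difference was 1.07 with an interval from -0.72 to 2.87 (adjusted p = 0.346), which rests on values at background. Members of the cluster are close paralogs, and whether a probe also binds a neighbour's transcript was not tested.

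**Figure D1:**
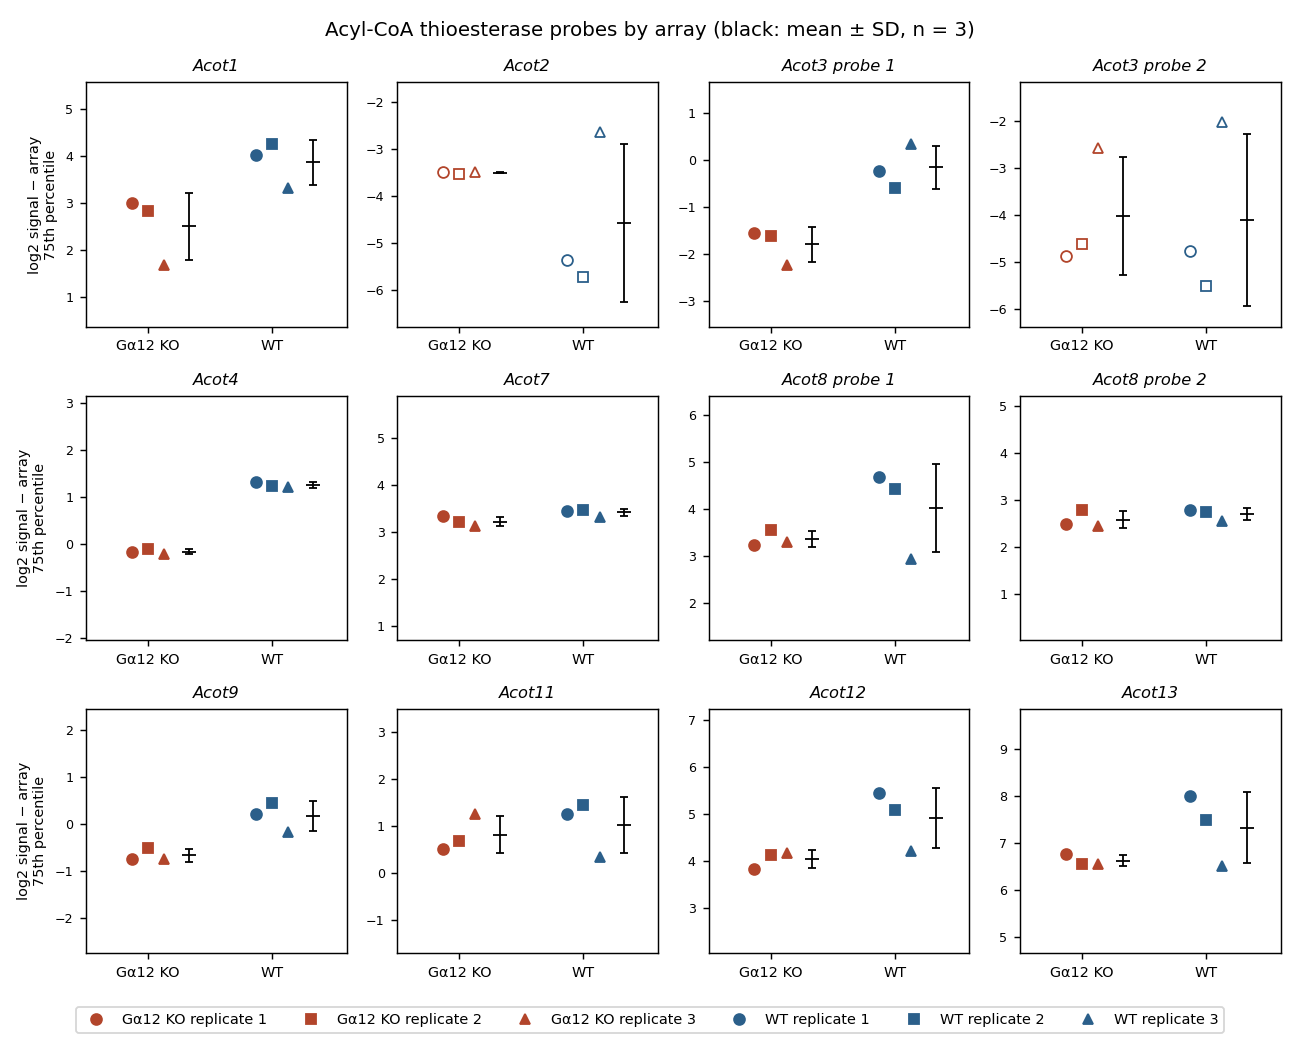
Level (log2 signal minus the array's 75th percentile) of each of the 12 Acot probes in 3 Gα12 KO livers (red, left) and 3 WT livers (blue, right), with mean ± SD in black, symbols for replicates, open symbols for the probes too dim to be kept, and panels of equal log2 span. Acot4 shows tight groups at -0.17 ± 0.05 in KO and 1.25 ± 0.07 in WT, whereas for Acot12 and Acot13 WT replicate 3 (triangle) sits beside the KO livers.

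Among type II genes, Acot9 and Acot12 had KO livers below all WT livers. Acot9 encodes a mitochondrial enzyme. It had levels of -0.73, -0.50 and -0.75 in KO livers and 0.23, 0.46 and -0.17 in WT livers. WT replicate 3 was again the WT liver nearest to KO, at 0.32 above the highest of them. The difference was -0.83 (SE 0.32, 95% interval -1.57 to -0.08; limma adjusted p = 0.235), and -0.49 against WT replicate 3 alone. Acot12, a cytosolic acetyl-CoA hydrolase made mainly in liver, had levels of 3.83, 4.13 and 4.17 in KO livers and 5.43, 5.08 and 4.21 in WT livers. Here WT replicate 3 was 0.04 above the highest KO liver, while WT replicates 1 and 2 averaged 1.22 above the KO mean. The difference was -0.87 (SE 0.40, 95% interval -1.79 to 0.06; limma adjusted p = 0.240), and -0.16 against WT replicate 3 alone.

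For Acot13 and Acot8 the groups overlapped. Acot13 (also Them2) encodes a mitochondria-associated enzyme that binds phosphatidylcholine transfer protein. Its levels were 6.76, 6.56 and 6.55 in KO livers and 8.01, 7.48 and 6.51 in WT livers, so that WT replicate 3 was the lowest of all 6. The difference of -0.71 (SE 0.43; limma adjusted p = 0.299) became 0.12 against WT replicate 3 alone. Acot8, a peroxisomal enzyme of broad chain-length use, had probes that did not give the same picture. Its brighter probe had levels of 3.23, 3.56 and 3.31 in KO and 4.69, 4.43 and 2.95 in WT, a difference of -0.66 (SE 0.49, 95% interval -1.80 to 0.48). Its other probe had levels of 2.51, 2.79 and 2.47 in KO and 2.79, 2.76 and 2.57 in WT, a difference of -0.12 (SE 0.30, 95% interval -0.81 to 0.58). The limma adjusted p was 0.370 for the brighter Acot8 probe and 0.794 for the other. Against WT replicate 3 alone the brighter probe differed by 0.42 and the other by 0.023. The WT livers spanned 1.74 log2 units on the first and 0.23 on the second.

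The intervals of Acot7 and Acot11 also spanned 0. Acot7 encodes a cytosolic enzyme that is best known from brain, where it is abundant in neurons. It was at 3.34, 3.21 and 3.14 in KO livers and 3.46, 3.48 and 3.34 in WT livers. These values were close in all 6 livers, with SDs of 0.10 in KO and 0.08 in WT (n = 3 each). The difference was -0.20 (SE 0.29, 95% interval -0.87 to 0.48; limma adjusted p = 0.641), and -0.10 against WT replicate 3 alone. Acot11 (also Them1 or BFIT), known from brown fat, where it is induced by cold in mice, was at 0.50, 0.68 and 1.25 in KO livers and 1.26, 1.44 and 0.34 in WT livers. The highest KO liver reached the level of WT replicate 1, and WT replicate 3 was the lowest of all. The difference was -0.20 (SE 0.41, 95% interval -1.16 to 0.76; limma adjusted p = 0.741), and 0.48 against WT replicate 3 alone.

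**Figure D2:**
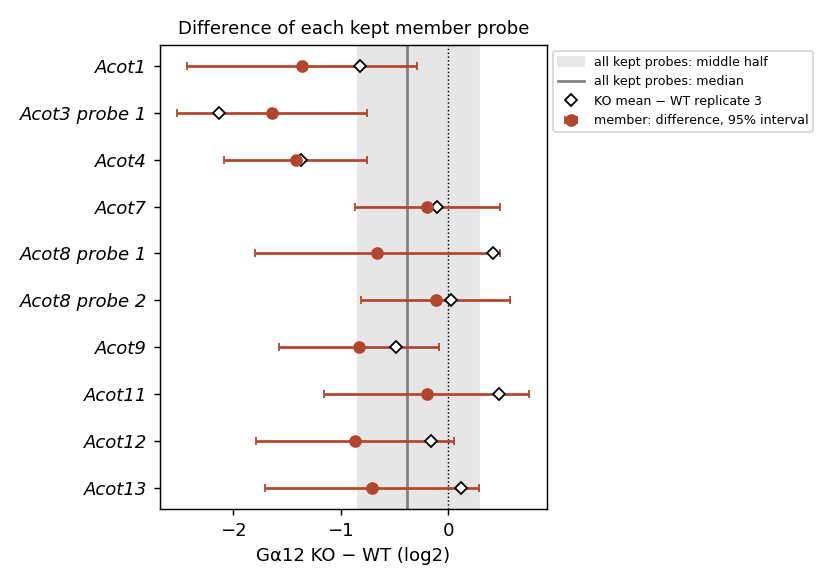
Gα12 KO minus WT in log2 units for the 10 kept Acot probes, with limma's 95% interval (red), and the KO mean minus WT replicate 3 alone (open diamonds), beside a grey line and band for the median (-0.38) and interquartile range of the differences of all kept probes. The line and band belong to the red values only. For the diamonds the like median, over all named genes against WT replicate 3 alone, was -0.03. Acot3 and Acot4 stay at -2.14 and -1.37 against WT replicate 3, while Acot13, Acot11 and both Acot8 probes lie above 0.

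As a family, all 10 kept Acot probes had a lower mean in KO than in WT, as did 65.5% of all kept probes. Their median difference was -0.77, against -0.38 over all kept probes. At an unadjusted p below 0.05, 4 of the 10 were lower in KO (Acot1, Acot3, Acot4 and Acot9), where 15.4% of all kept probes were. None was higher, where 5.62% of all were. The groups did not overlap, with KO lower, for 5 of the 10 (these 4 and Acot12), and for 18.8% of all kept probes. These counts are small, and 0 of the 10 passed limma's adjusted test.

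Between the types, the mean level of the 3 kept type I probes was 0.42, 0.36 and -0.26 in KO livers and 1.70, 1.63 and 1.62 in WT livers. The similar WT means hide members that went opposite ways: WT replicate 3 was 0.82 below the mean of WT replicates 1 and 2 for Acot1 and above it for Acot3, while Acot4 was close in all. The mean of the 7 kept type II probes was 2.78, 2.92 and 2.88 in KO livers and 3.70, 3.59 and 2.82 in WT livers, where WT replicate 3 lay within the KO range. The median difference was -1.42 over the type I probes and -0.66 over the type II probes. The difference between the types was not tested. Scaling by a constant has no effect on a ratio within an array, and Acot4 minus Acot7, a pair chosen after their values were seen and so not tested, was -3.53, -3.33 and -3.36 in KO livers and -2.14, -2.26 and -2.14 in WT livers.

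Without WT replicate 3, limma called 7 of the 10 Acot probes as lower in KO, but it also called 13123 of all 23132 probes (56.7%), so the count is not particular to the family. The lowest adjusted p among the 7 was 0.00483, for Acot4. Leaving out WT replicates 1 and 2 together leaves 1 WT liver, whose spread is assumed to equal that of the KO livers. The family's median difference was then -0.13, against -0.05 over all kept probes. Acot3 differed by -2.14 and Acot4 by -1.37 in that fit. Of the 10 probes, 6 had a lower mean in KO than in WT replicate 3, as did 6554 of all 12297 named genes. The genes are counted by their brightest kept probe, a different base from the 10 probes. After normexp background correction Acot4 differed by -1.11 and Acot3 by -1.10, where the median over all kept probes was -0.24. Under quantile normalization the family's median was -0.29, against -0.16 over all kept probes. Acot7 and the second Acot8 probe then had differences above 0 (0.22 and 0.24).

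**Figure D3:**
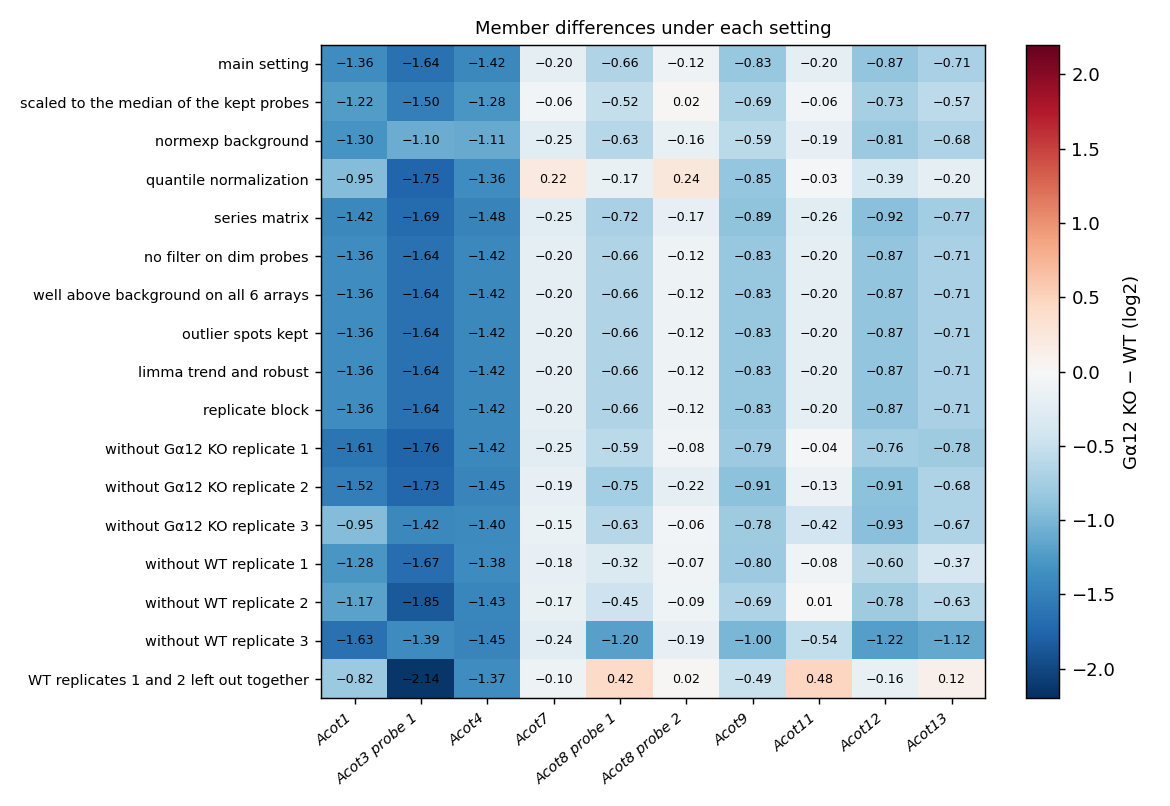
Gα12 KO minus WT in log2 units (colour and number) for the 10 kept Acot probes in columns, under the main setting and 16 alternatives in rows. The columns of Acot1, Acot3, Acot4, Acot9 and Acot12 are below 0 throughout, and Acot4 moves least of these, between -1.48 and -1.11.

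Other thioesterase genes had a median difference nearer 0 than the Acot probes in the main fit, but not against WT replicate 3 alone. Acot5 and Acot6 lie in the same cluster. Acot5 had levels of -1.75, -1.44 and -2.42 in KO and -2.58, -2.33 and -0.84 in WT, with WT replicate 3 above all KO livers and WT replicate 1 below them, and a difference of 0.05 (SE 0.53). Against WT replicate 3 alone Acot5 differed by -1.03. Of 13 other thioesterase genes listed, 9 were measured, 0 had an unadjusted p below 0.05, and their median difference was -0.09. The 3 with the lowest p were Them4, a mitochondrial thioesterase gene, at -0.68 (SE 0.36), Lypla2, which encodes a protein depalmitoylase, at -0.74 (SE 0.43), and Acot10, a paralog of Acot9. Acot10 was well above background in only 1 of 3 KO and 2 of 3 WT livers, so its value of 0.99 (SE 0.67) rests partly on background. Them4 differed by -0.30, Lypla2 by 0.14 and Acot10 by 0.30 against WT replicate 3 alone. The list's median against that array was -0.18, where the Acot probes had -0.13 and all named genes -0.03.

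Acyl-CoA synthetase genes, whose enzymes run the opposite reaction, had a lower mean in KO for 13 of the 17 measured of 20 listed, where 72.3% of all named genes had one. With an unadjusted p below 0.05, 5 of the 17 were lower and none higher, where 16.6% of all named genes were lower and 3.98% higher. Their median difference was -0.71, against -0.49 over all named genes. The same medians against WT replicate 3 alone were -0.20 for the synthetases and -0.03 for all named genes. Acsl3, a long-chain synthetase of lipid droplets and endoplasmic reticulum, was at -1.48 ± 0.43 in KO and 0.76 ± 1.47 in WT (SD, n = 3 each), a difference of -2.24 (SE 0.70). Its WT levels were 1.64, 1.59 and -0.94, and against WT replicate 3 alone the difference was -0.54. Acsl6 and Acss1, both counted among the 5, were not well above background in any KO liver. They were kept through the WT livers alone, so their place in that count depends partly on the filter. Their signals were at least 3.05-fold lower (Acsl6) and at least 3.26-fold lower (Acss1, the mitochondrial acetyl-CoA synthetase) in KO, as bounds that set the WT mean against the higher of the KO signal and the lowest signal well above background. The bounds against WT replicate 3 alone were 2.07 for Acsl6 and 1.41 for Acss1, for which WT replicate 3 (-3.50) lay below KO replicate 1 (-3.39). In limma these 3 had an adjusted p of 0.235.

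Genes that make, bind or hydrolyse CoA had a median difference nearer 0 than that of all named genes (-0.49). Of 15 listed, 13 were measured, the median difference was -0.26, and 2 had an unadjusted p below 0.05, both lower in KO, which is near the share of all named genes. The lowest p values belonged to Pank4, a pantothenate kinase family gene, at -1.17 (SE 0.42), Acbd4, which encodes a peroxisomal acyl-CoA binding protein, at -1.08 (SE 0.45), and Nudt19, a peroxisomal CoA hydrolase gene, at -0.85 (SE 0.38). The differences against WT replicate 3 alone were -0.46 for Pank4, -0.12 for Acbd4 and -0.17 for Nudt19, and the list's median was -0.06. Of 7 genes for transfer of acyl groups to and from carnitine, 6 were measured, with a median difference of 0.49 that was -0.10 against WT replicate 3 alone. At an unadjusted p below 0.05, 1 was higher in KO and none lower, where 3.98% of all named genes were higher and 16.6% lower. The muscle carnitine palmitoyltransferase gene Cpt1b differed by 1.31 (SE 0.47), with a signal well above background in 3 of 3 KO livers and 1 of 3 WT livers. Of the skeletal muscle markers, Acta1 differed by 2.58 (SE 0.76) and Tnnt3 by 1.80 (SE 0.80), each well above background in 2 of 3 KO and 1 of 3 WT livers, and their part in the Cpt1b value was not tested. Cpt2, which hands acyl groups back to CoA in mitochondria, differed by -0.83 (SE 0.41), and Crot, the peroxisomal carnitine octanoyltransferase gene, by -0.51 (SE 0.32). Cpt1b differed by 0.33 against WT replicate 3 alone, Cpt2 by -0.02, Crot by -0.48, Acta1 by 1.98 and Tnnt3 by 1.34.

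PPARα targets were compared because type I Acot genes belong to them. Of 29 genes on this list, all were measured and 24 had a lower mean in KO, where 72.3% of all named genes had one. An unadjusted p below 0.05 was reached by 6, all lower in KO, and the median difference was -0.50. The share below that p and the median lie near those of all named genes (16.6% and -0.49). The list's median against WT replicate 3 alone was -0.23. Ppara itself had levels of 4.69, 5.67 and 5.77 in KO and 5.31, 5.11 and 5.39 in WT, and differed by 0.11 (SE 0.38). Against WT replicate 3 alone Ppara differed by -0.02. The 3 lowest p values belonged to Abcd2, Pdk4 and Acaa1b. The peroxisomal fatty acid transporter gene Abcd2 was at least 4.86-fold lower in KO, where no liver was well above background. It was kept through the WT livers alone, so its place among the 6 depends partly on the filter. Pdk4, which restrains pyruvate oxidation, differed by -1.48 (SE 0.46), and Acaa1b, a peroxisomal thiolase gene, by -1.14 (SE 0.39). Against WT replicate 3 alone the fold for Abcd2 was 2.62, and Pdk4 differed by -0.88 and Acaa1b by -0.61. The limma adjusted p of these 3 was 0.235. No gene of the 5 lists passed the limma test over all probes.

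**Figure D4:**
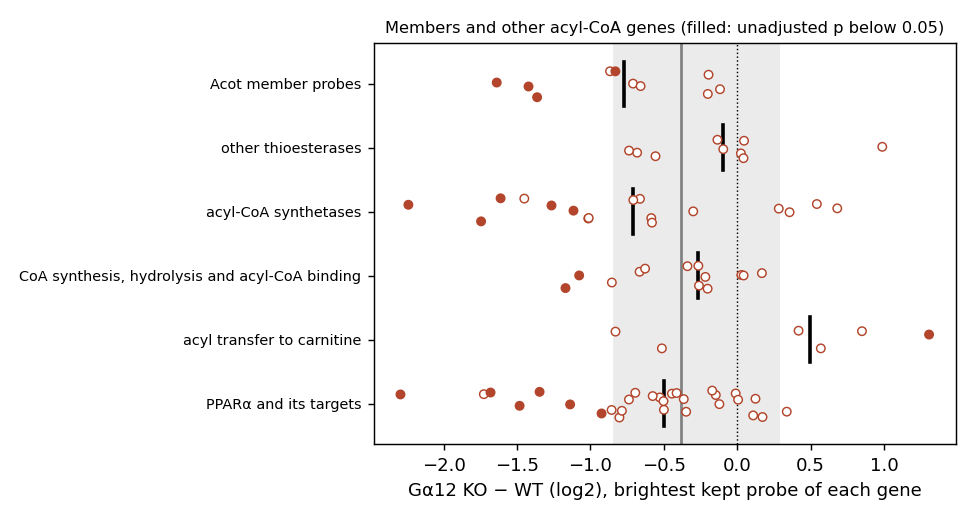
Gα12 KO minus WT in log2 units for the 10 kept Acot probes (top) and for the measured genes of 5 other lists, 1 point for each probe or gene, with the list's median as a black bar, filled points for an unadjusted p below 0.05, and a grey line and band for the median and interquartile range of all kept probes. The Acot probes have a median of -0.77, the PPARα list -0.50 and the carnitine list 0.49.

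The labelled tissue matched its markers, since all 7 hepatocyte genes were measured, with a mean level over the list of 8.90 to 9.19 in KO livers and 8.65 to 8.95 in WT livers. In whole liver, fewer cells of a type and less RNA per cell cannot be told apart. Markers of stellate cells (5 of 6 measured) had a mean level of 0.68 to 0.90 in KO livers and 1.09 to 1.52 in WT livers, which do not overlap. Of these 5, 4 were lower in KO, but Des was higher, at 1.28 (SE 0.72). Markers of erythroid cells (3 of 5) had 6.50 to 6.74 in KO and 6.83 to 7.60 in WT, also without overlap. Among single kept probes, 18.8% did not overlap with KO lower. Against WT replicate 3 alone the median difference was -0.27 for the stellate and -0.28 for the erythroid markers. For Kupffer cells (5 of 6) the ranges overlapped, at 2.98 to 3.37 in KO and 2.79 to 4.08 in WT, as they did for sinusoidal endothelial cells (6 of 6), at 2.19 to 2.59 in KO and 1.68 to 2.28 in WT. Sinusoidal endothelial markers went opposite ways, with 3 of the 6 lower in KO. Kdr differed by 2.28 (SE 0.67) and Cdh5 by 2.40 (SE 0.81), but Stab2 by -0.90 (SE 0.40) and Clec4g by -0.35 (SE 0.30). Against WT replicate 3 alone these 4 differed by 0.81, 0.47, -0.12 and -0.26. Of the adipocyte markers 1 of 5 was measured, and Lep, Cidea and Ucp1 were well above background on no array. Skeletal muscle markers (2 of 5) had -2.96 to 0.26 in KO and -3.90 to -2.93 in WT, and Ckm and Mylpf were well above background on no array. Lymphocyte, neutrophil and cholangiocyte markers (3 measured of each) overlapped between the groups. The part of other cell types in the Acot values was not tested.

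By profile over the 6 arrays, the named genes nearest to Acot4 among 12296 others were Wnt2, Stk39 and Ipo9, at root mean square distances of 0.09, 0.16 and 0.19 log2 units after each gene's mean was subtracted. Nearest to Acot3 were Zfp456, Slc26a10 and Slc17a8, at 0.29, 0.29 and 0.30. Acot4 ranked 7 among the genes nearest to Acot3, at 0.36, and Acot3 ranked 272 among those nearest to Acot4.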

How the data were processed

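Gene expression was measured on 6 one-colour Agilent mouse arrays labelled with Cy3, 1 for each liver, from 0.5 µg of RNA. The authors read them with Agilent Feature Extraction 10.7.3.1, per the submitters' processing notes, and the deposited scanner files hold spot intensity on a linear scale, with background subtracted and low values set to a floor. The matrix that the authors deposited is in log2 units. Set against the scanner files, each column equalled log2 of the processed intensity shifted by 1 value per array, without centring of probes, with column medians of 4.32, 4.44 and 4.52 in KO and 4.41, 4.17 and 4.70 in WT. The basis of these shifts is not given in the sources used here.

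Here log2 processed intensity minus each array's 75th percentile was used, outlier spots were left out, and spots of a probe were averaged. A probe was kept where at least 3 of 6 arrays had it well above background. Sample titles gave the groups and the replicate numbers, and the labels give 3 animals for each genotype. Accessions were named through a RefSeq table of GRCm38.p6, which matched 26762 of 55681 probes, although the array design used an older build. KO minus WT was fitted with limma 3.58.1 in R 4.3.3, two-sided, with Benjamini-Hochberg adjustment over all kept probes and a threshold of 0.05. Dim probes took their values from a fit over all probes. The script was tested on simulated data. All members and probes are named, and in each list the 3 genes with the lowest p, with each gene represented by its brightest kept probe. Members and lists were chosen with earlier results of these data known. The number of arrays limits the precision. Alternatives covered scaling, background, filter, outlier marks, limma options, the replicate number as a block and leaving out arrays.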

Additional observations from a re-analysis of the deposited data

How the results depend on the processing

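The median difference of the kept Acot probes (main value -0.77) stayed below 0 under every alternative run. It moved by more than the spread between livers with quantile normalization (-0.29), without WT replicate 3 (-1.16), and with WT replicates 1 and 2 both left out, an alternative chosen after seeing the data (-0.13). The median over all kept probes (main value -0.38) moved as well, to -0.16, -0.57 and -0.05 in the same order. With 1 array left out the median of the Acot probes ran from -1.16 (without WT replicate 3) to -0.49 (without WT replicate 1). The number of Acot probes lower at an unadjusted p below 0.05 had a main value of 4. With 1 array left out it was lowest at 2 (without KO replicate 3 or WT replicate 2). It was highest at 7 (without WT replicate 3). Of all 23132 kept probes, 3561 were lower at that p in the main fit. Their number was 2341 without KO replicate 3, 1460 without WT replicate 2 and 10475 without WT replicate 3, so it moved as well. Over the whole array limma called 0 probes as reported, 1 after normexp, 18 after quantile normalization, 2 with the filter on all 6 arrays, and 7 genes with the mean over a gene's probes. With 1 array left out it called 0 to 13123, the highest being without WT replicate 3. Acot1, Acot3, Acot4, Acot9 and Acot12 were below 0 under every alternative. The sign turned for the second Acot8 probe with median scaling (0.022), quantile normalization (0.24) and WT replicates 1 and 2 left out (0.023), for the first Acot8 probe (0.42) and Acot13 (0.12) with those arrays left out, for Acot7 with quantile normalization (0.22), and for Acot11 with those arrays left out (0.48) and without WT replicate 2 (from -0.54 without WT replicate 3 to 0.013). The cause of these shifts was not tested. With the replicate number as a block the count of Acot probes lower at an unadjusted p below 0.05 was 3, and that of all kept probes 2907. Deviations of same-numbered arrays correlated at -0.13, 0.01 and -0.04, and those of other pairs at -0.20 to 0.22. With 3 arrays per group these values cannot tell whether the titles' numbers pair the livers. No call changed under the block. Signals near background limit Acot2 and the second Acot3 probe.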
